A study of Caenorhabditis elegans with 34 samples.

Results

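The pals genes of Caenorhabditis elegans were followed through life in whole animals, from day 1 to day 12 after the first food. Members were every gene of the table whose symbol is pals- followed by a number, which gave 38 of the 20222 worm genes. RNA was sequenced from populations of the strain carrying spe-9(hc88), a temperature-sensitive mutation of a sperm gene that keeps hermaphrodites from producing progeny at 25°C, and all samples shared that mutation, that temperature and a lawn of E. coli OP50 as food. Synchronized L1 larvae were placed on food at day 0, and whole plates of pooled animals were harvested daily. The labels give the day but no developmental stage, so groups are named by day. The 34 samples comprised 3 samples on each of 10 days and 2 samples on days 8 and 12. No stressor or pathogen was applied, and no wild-type strain or other temperature was included, so ages are compared only with one another.

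The pals family (named for a protein signature shared with the human ALS2CR12 gene) is much larger in C. elegans than in mammals. Many of its members are switched on in the intestine and epidermis as part of the intracellular pathogen response, a transcriptional program induced by microsporidia and by the Orsay virus, both of which live inside intestinal cells, and also by blockade of the proteasome and by prolonged heat. In that program pals-22 acts as a brake and its neighbour pals-25 as an activator, pals-17 is a further brake, pals-5 is the gene most often used as a reporter, and a cullin-RING ubiquitin ligase built on CUL-6 is among the effectors.

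Most members lie side by side in the genome. By the Ensembl annotation (build WBcel235), and joining members less than 50 kb apart, 14 members formed a block on chromosome I (13083321 to 13144623: pals-2 to pals-15). A second block of 4 lay on chromosome III (120435 to 137975: pals-24, pals-23, pals-22 and pals-25). Another 7 lay farther along that chromosome (1376945 to 1406263: pals-40, pals-21, pals-20, pals-17, pals-16, pals-19 and pals-18), and a last block there held pals-26, pals-27 and pals-28 (4375154 to 4387757). The remaining blocks were pals-29 with pals-30 on chromosome IV (14539685 to 14551970) and pals-37, pals-39 and pals-38 on chromosome V (12437440 to 12446995), while pals-1, pals-31, pals-32, pals-33 and pals-34 had no pals neighbour. The exons of 13 members overlapped exons of another gene. In the extreme case 1185 of the 1191 exonic bases of pals-12 were shared with pals-3 on the same strand, so the counts of this pair are uncertain. Lesser doubts apply to pals-37 (925 bases shared with a gene on the opposite strand), pals-20 (502 bases shared with Y82E9BR.5) and pals-32 (195 bases shared with str-46), because the counting is not stated to use strand. Reads that fit several related pals genes may also have been divided or dropped in the counting.

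Libraries held 19202058 to 27587987 gene counts. Samples of the same day correlated at 0.967 to 0.994 across detected genes. On day 12 the table and the labels number 1 sample differently, so that sample is called the day 12 sample of unclear number. Test results that rest on it are also given without it. In bulk RNA a change in the number of cells of a type cannot be told apart from a change in RNA per cell.

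The family as a whole had an intermediate summed level on day 1, its lowest on days 2 and 3 and higher ones from day 4 onwards. Summed over its 38 members (in CPM, read counts scaled to a common library size with TMM factors), the family reached 96.4 ± 7.46 CPM on day 1, 28.7 ± 0.605 on day 2, 25.5 ± 2.18 on day 3, 41.1 ± 14.8 on day 4, 63.2 ± 14 on day 5, 77.8 ± 3.83 on day 6 and 108 ± 16.8 on day 7 (SD, n = 3 each). It then held 94.9 ± 17.4 CPM on day 8 (n = 2), 114 ± 29.8 on day 9, 123 ± 16 on day 10 and 140 ± 29.6 on day 11 (n = 3 each), and 146 ± 66.8 on day 12 (n = 2). The make-up of this sum differed between its ends. On day 11 the chromosome I block supplied 56.0 ± 10.3 CPM and the 7 genes around pals-17 on chromosome III 11.4 ± 3.68 CPM, whereas on day 1 the chromosome I block supplied 7.02 ± 1.82 CPM and those chromosome III genes 54.4 ± 11.6 CPM.

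**Figure D1:**
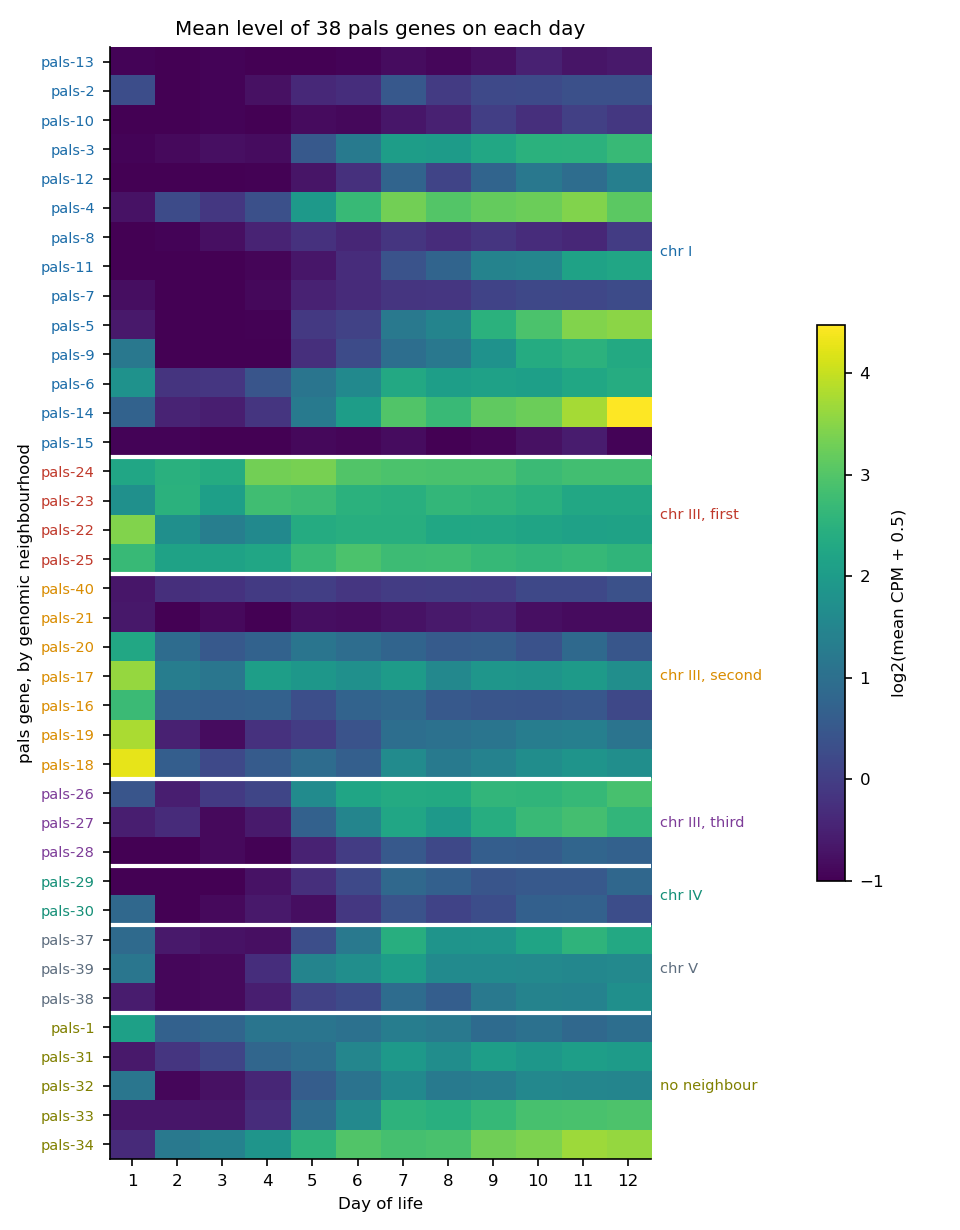
Mean level of each of the 38 pals genes (rows, grouped by genomic neighbourhood, with the 3 chromosome III blocks in order along the chromosome) on days 1 to 12 (columns), coloured by log2 of mean CPM plus 0.5. pals-16 to pals-20 and pals-22 are brightest on day 1, and in the chromosome I block pals-3, pals-4, pals-5, pals-9, pals-11 and pals-14 are brighter on days 11 and 12 than on days 2 and 3.

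**Figure D2:**
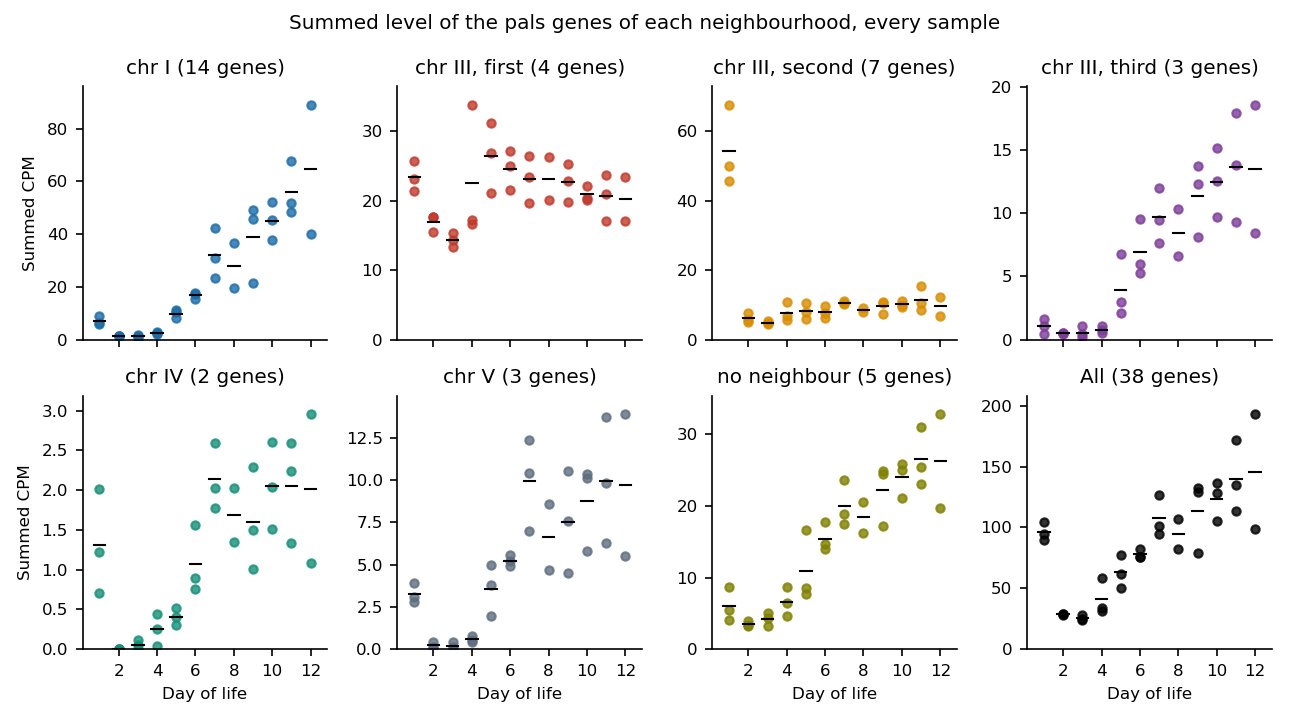
Summed CPM of the pals genes of each neighbourhood against day of life; points are samples, black bars are day means, and the last panel sums all 38 genes. The chromosome I sum averages 64.6 CPM on day 12, where its 2 samples stand at 40.0 and 89.1 CPM, and 1.40 CPM on day 2.

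Per kilobase of exon, the leading members changed with age. On day 1 the highest levels were those of pals-19 (13.6 ± 5.12 CPM per kb), pals-17 (13.4 ± 2.09) and pals-22 (11.6 ± 1.71; SD, n = 3), which overlapped one another. On days 2 and 3 the order was led by pals-24 (4.79 ± 0.653 CPM per kb) and pals-25 (3.67 ± 0.403; n = 6), with no other member above 2.97 on average. On days 11 and 12 it was led by pals-34 (16 ± 2.1 CPM per kb), pals-14 (13.7 ± 10.3) and pals-5 (9.59 ± 2.27; n = 5), and the samples of pals-14 spanned 5.78 to 30.7 CPM per kb and so overlapped both others.

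Many members were lower on day 2 than on day 1. Among the 20 members with at least 5 counts in 75% of samples, 12 were lower and 2 higher on day 2 (edgeR quasi-likelihood test, Benjamini-Hochberg adjusted p under 0.01), where 37.9% of all tested genes were lower and 37.5% higher. With every detected gene kept, 16 of the 38 members were lower and 2 higher, against 29.9% lower and 28.1% higher among all genes. The median log2 change of the 38 members was -1.68, or -1.45 with members at 0 on one of the days set to their bound, beside 0 for all genes. All day 2 samples lay below all day 1 samples for 16 members, beside 35.4% of all genes, and above them for 3, beside 30.9% of all genes. The share below was thus near the background, and the share above well under it.

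Expression on day 1 was pronounced for pals-18 and pals-19, which lie side by side on chromosome III and share 53 exonic bases on the same strand. On day 2 pals-18 had 1.38, 0.771 and 1.02 CPM, against 15.6, 27.1 and 13.6 CPM on day 1, a log2 change of -4.15 ± 0.39 (SE; adjusted p = 1.89e-10, edgeR). For pals-19 the values were 0.160, 0.144 and 0.305 CPM on day 2, against 13.6, 17.9 and 8.00 CPM on day 1, a change of -5.98 ± 0.63 (adjusted p = 2.19e-09, edgeR). In both genes the days were far from overlapping.

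The brakes of the response were lower as well. On day 2 pals-22 had 3.08, 2.79 and 2.60 CPM, against 11.1, 8.64 and 11.4 CPM on day 1 (log2 change -1.88 ± 0.23, adjusted p = 2.21e-08, edgeR). The values of pals-17 were 2.02, 2.31 and 1.68 CPM on day 2, against 10.0, 11.3 and 13.6 CPM on day 1 (-2.53 ± 0.24, adjusted p = 3.26e-10, edgeR). Both genes stood apart completely between the days. Beside pals-17 lie pals-16 and pals-20, which are also regulators of the response but are not counted here as brakes. They changed by -2.43 ± 0.45 and -1.63 ± 0.45 (adjusted p = 1.76e-05 and 0.00179, edgeR), again without overlap. The activator pals-25 had 4.20, 4.05 and 3.56 CPM on day 2, against 6.05, 4.72 and 7.03 CPM on day 1, and although its days did not overlap, its change of -0.59 ± 0.24 missed the threshold (adjusted p = 0.0265, edgeR).

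Some members were undetected on day 2. pals-9 had 0 counts in all 3 samples of day 2, against 2.88, 1.91 and 0.611 CPM on day 1, at least 35.9-fold lower when 3 counts over the day 2 samples are taken as the floor. pals-30 likewise had 0 counts on day 2, against 0.705, 1.22 and 2.02 CPM on day 1 (at least 25.7-fold lower), and pals-2 had 0 counts, against 1.23, 0.583 and 0.367 CPM (at least 14.4-fold lower). The reporter gene pals-5 had 0 counts on day 2, against 0.117, 0.265 and 0.0611 CPM on day 1, a total of 8 counts (at least 3.02-fold lower, adjusted p = 0.00964 by edgeR with no filter). All 3 samples of day 2 lay below all 3 of day 1 in these 4 genes, and at this depth only the lower bound of the change can be given.

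Among members counted on both days, pals-39 had 0, 0 and 0.102 CPM on day 2, against 1.35, 1.22 and 2.63 CPM on day 1. pals-32 had 0.0532, 0 and 0.0509 CPM on day 2, against 1.12, 2.17 and 1.83 CPM on day 1. From counts alone the ratios of day 2 to day 1 were 0.0198 (95% exact interval 0.00237 to 0.0738) and 0.0196 (0.00234 to 0.0729), intervals that cover counting error only, and both genes passed the test (adjusted p = 8.97e-07 and 8.94e-07, edgeR). The 2 members that were higher on day 2 were pals-4, with 0.904, 0.771 and 0.407 CPM on day 2 against 0.235, 0 and 0.0611 CPM on day 1 (log2 change 2.78 ± 0.59, adjusted p = 0.000123, edgeR), and pals-34, with 1.97, 1.35 and 2.14 CPM against 0.352, 0.265 and 0.244 CPM (2.64 ± 0.38, adjusted p = 5.50e-07, edgeR). Neither overlapped between the days.

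Levels of tissue marker genes differed between these days too. Summed over 9 germline and oocyte markers (such as rme-2, the yolk receptor of oocytes), day 2 samples held 7897 to 8497 CPM and day 1 samples 36.2 to 79.3 CPM, and every one of the 9 genes was higher on day 2. Over 5 intestine markers the sums were 708 to 918 CPM on day 2 and 3232 to 4151 CPM on day 1, and 3 of the genes were lower. Over 6 epidermis markers they were 1192 to 2225 CPM on day 2 and 2243 to 3025 CPM on day 1. Of these 6, 1 was higher and 4 lower on day 2 with no filter, where 28.1% of all genes were higher and 29.9% lower. The part of these marker differences in the lower pals levels was not tested.

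**Figure D3:**
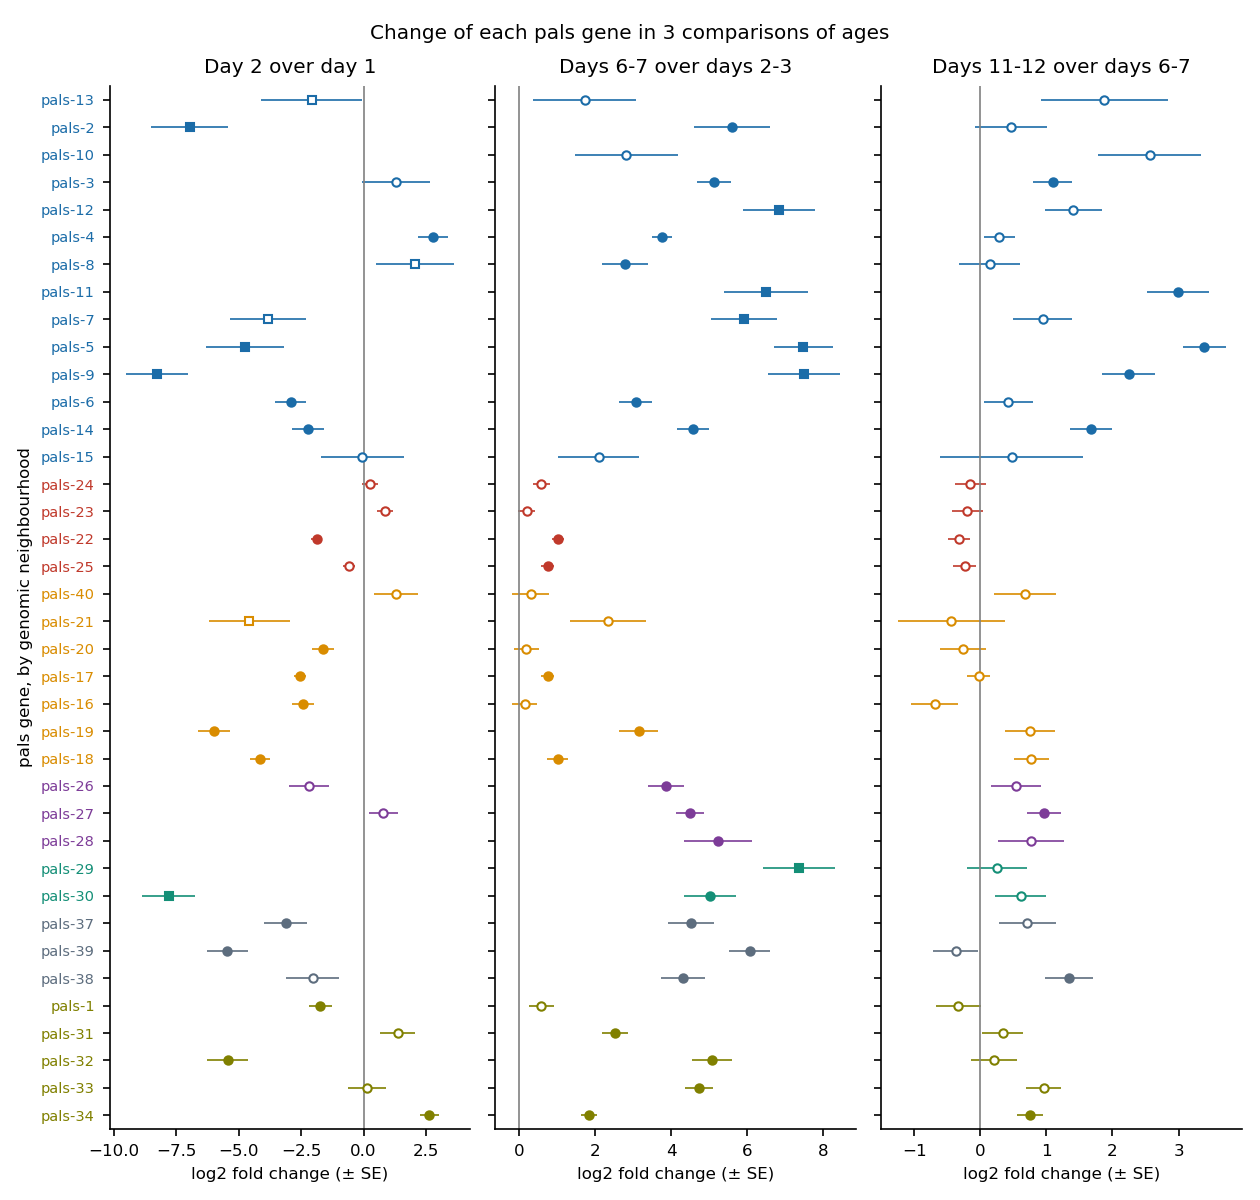
Log2 fold change with its SE for each member, grouped as in the heat map, in 3 comparisons of ages. Filled symbols passed the adjusted threshold of 0.01, open symbols did not, squares mark members at 0 in all samples of one side (their fitted value is no bound), and members at 0 on both sides are left out. Most of the points lie left of 0 in the first panel, and none that passed lies left of 0 in the other panels.

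Across days 2 to 12 members rose and none fell. In a cubic model of age, 14 of the 21 members that met the same filter over those days had a positive linear term past the threshold and 0 a negative one, where 36.9% of all tested genes rose and 33.9% fell (edgeR quasi-likelihood test). Counting any of the 3 age terms, 14 changed, beside 80.3% of all tested genes. A member that is nearly silent on days 2 and 3 can pass this filter only through its later days, and with no filter 29 of the 38 members rose and 0 fell, where 35.2% of all genes rose and 26.1% fell (30 members and 68.6% of all genes changed in any term). At an unadjusted p under 0.05 the count of falling members was 0 with the filter and 0 without, and DESeq2 also called 0 falling. The median slope of the 38 was 0.49 log2 units per day, beside 0.04 for all genes.

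The steepest slopes belonged to the chromosome I block, in which all 14 members rose when no gene was filtered out. pals-5 rose by 1.19 ± 0.06 log2 units per day (SE; adjusted p = 6.50e-18, edgeR), pals-9 by 1.16 ± 0.07, pals-12 by 1.14 ± 0.09, pals-11 by 1.09 ± 0.07 and pals-3 by 0.79 ± 0.05. Outside it pals-29 on chromosome IV rose by 0.86 ± 0.08. Among members that passed the filter the steepest were pals-14 (0.70 ± 0.05), pals-33 (0.67 ± 0.04), pals-39 and pals-37 (0.64 ± 0.06 and 0.64 ± 0.07). The members that did not pass as rising were pals-1, pals-16, pals-17, pals-20, pals-21, pals-23, pals-24 and pals-40 and, with no filter, pals-25. Of these 9, 8 lay in the blocks around pals-22 and pals-17 on chromosome III, the exception being pals-1. The median slope was 0.67 in the chromosome I block, 0.02 in the block of pals-22 and 0.08 in that of pals-17, values of 14, 4 and 7 genes that are given as a description.

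In log2 units, most of the members' median change from days 2 and 3 was present by days 6 and 7. With no filter it was 3.40 then and 4.16 on days 11 and 12. In CPM the chromosome I block was still below its later level, averaging 16.8 on day 6, 32.2 on day 7 and 56.0 on day 11. On days 6 and 7, 14 of the 20 filtered members were higher than on days 2 and 3 and 0 were lower, where 26.5% of all tested genes were higher and 23.6% lower (edgeR). With no filter 28 of the 38 were higher and 0 lower, against 23.0% and 18.1% of all genes, and the median log2 change of the members was 3.40, beside 0.26 for all genes. At an unadjusted p under 0.05, 0 members were lower with the filter and 0 without, and DESeq2 called 0. All 6 samples of days 6 and 7 lay above all 6 of days 2 and 3 for 25 members, beside 16.4% of all genes.

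Several members had no count in any sample of days 2 and 3. pals-5 ranged over 0.377 to 2.1 CPM on days 6 and 7 (median 1.03), against 0 counts in all 6 samples of days 2 and 3. With 178 counts on days 6 and 7 it was at least 47.9-fold higher. pals-9 ranged over 0.425 to 1.82 CPM (median 0.968), against 0 counts (at least 43.6-fold higher), and pals-29 over 0.566 to 1.63 CPM (median 0.934), against 0 counts (at least 39.3-fold higher). In the chromosome I block pals-12 and pals-11 stood at 0.236 to 1.52 and 0.160 to 1.19 CPM, against 0 counts, at least 31.2-fold and 22.9-fold higher. The counts of pals-12 are uncertain because nearly all its exonic bases are shared with pals-3.

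Of members already counted on days 2 and 3, pals-39 ranged over 2.31 to 4.38 CPM on days 6 and 7 (median 2.87), against 0 to 0.102 CPM on days 2 and 3 (median 0.0244), a log2 change of 6.06 ± 0.54 (adjusted p = 4.45e-10, edgeR). pals-14 ranged over 2.83 to 10.3 CPM (median 4.82), against 0.0975 to 0.337 CPM (median 0.214), a change of 4.58 ± 0.42 (adjusted p = 8.61e-10, edgeR). pals-4 ranged over 5.20 to 12.7 CPM (median 6.33), against 0.341 to 0.904 CPM (median 0.474), a change of 3.76 ± 0.27 (adjusted p = 1.2e-11, edgeR). None of these overlapped between the ages. The other large changes among filtered members were those of pals-32 (5.07 ± 0.53), pals-37 (4.52 ± 0.60) and pals-26 (3.87 ± 0.47), and pals-23 and pals-24, neighbours of pals-22, changed by 0.20 ± 0.22 and 0.58 ± 0.22 without passing (adjusted p = 0.437 and 0.0262, edgeR).

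The first day on which all samples of a member exceeded all samples of days 2 and 3 was day 4 for 5 members (pals-17, pals-24, pals-34, pals-38 and pals-39), day 5 for 16, day 6 for 6, day 7 for 4, and a later day for 3. It was never reached by pals-16, pals-20, pals-23 and pals-40. The condition did not last in every member. It was met on 9 days by pals-17, pals-34, pals-38 and pals-39, but on 6 by pals-24, 3 by pals-21, 2 by pals-1 and 1 by pals-13 and pals-15. On days 8 and 12, with 2 samples each, it is easier to meet. Taken day by day, 5 members met the condition on day 4 (5.08% of all genes did), 21 on day 5 (13.8%), 26 on day 6 (19.7%) and 30 on day 7 (25.7%). The count was 32 on day 8 (29.8%), 30 on day 9 (29.0%), 31 on day 10 (30.4%), 29 on day 11 (29.1%) and 29 on day 12 (30.6%). pals-5, for example, had 0, 0 and 0.0435 CPM on day 4, 0.467, 0.251 and 0.590 CPM on day 5, 0.475, 0.377 and 0.800 CPM on day 6, and 2.08, 2.1 and 1.26 CPM on day 7.

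Day 4 replicate 2 and day 5 replicate 3 were the highest of their day, with family sums of 58.2 and 77.8 CPM where the others of their day held at most 33.4 and 62.0 CPM. With both left out, a choice made after seeing the data, 16 filtered members rose with age. The filter was applied anew to the samples left. Neither the number of members tested nor the share of all genes rising is given for that fit. Its count is therefore not comparable with that of the main fit.

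Fewer members differed between days 11 and 12 and days 6 and 7. On days 11 and 12, 2 of the 20 filtered members were higher than on days 6 and 7 and 0 were lower, where 9.6% of all tested genes were higher and 11.5% lower (edgeR), so the share was near the background. At an unadjusted p under 0.05 again 0 were lower, and DESeq2 called 2 higher and 0 lower. With no filter 8 of the 38 were higher and 0 lower, against 5.41% and 7.41% of all genes. The 8 were pals-3, pals-5, pals-9, pals-11, pals-14, pals-27, pals-34 and pals-38. These counts rested in part on the day 12 sample of unclear number. Without it 0 filtered members were higher and, with no filter, 3 were (pals-5, pals-9 and pals-11), while at an unadjusted p under 0.05 there were 10 higher and 2 lower.

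Those 3 members of the chromosome I block continued to climb. Between pals-11 and pals-5 lies pals-7, which did not pass (log2 change 0.94, adjusted p = 0.128, edgeR with no filter). pals-5 had 10.9, 10.3 and 9.62 CPM on day 11 and 7.49 and 14.4 CPM on day 12, against 0.377 to 2.1 CPM on days 6 and 7, a log2 change of 3.39 ± 0.32 (adjusted p = 2.36e-07, edgeR) and 3.09 without the unclear sample (adjusted p = 4.13e-06). pals-11 had 4.74, 3.86 and 3.28 CPM on day 11 and 3.79 and 4.61 CPM on day 12, against 0.160 to 1.19 CPM (2.99 ± 0.46, adjusted p = 0.000101, edgeR). pals-9 had 5.43, 5.15 and 5.10 CPM on day 11 and 3.57 and 5.42 CPM on day 12, against 0.425 to 1.82 CPM (2.24 ± 0.40, adjusted p = 0.000399, edgeR). Each sample of days 11 and 12 was above each sample of days 6 and 7 in all 3 genes.

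The level of pals-14, by contrast, depended on a single library. It had 8.83, 10.5 and 18.8 CPM on day 11 and 6.86 and 36.5 CPM on day 12, against 2.83 to 10.3 CPM on days 6 and 7, so the ages overlapped. Its log2 change was 1.68 ± 0.32 (adjusted p = 0.000283, edgeR), and it was 0.82 without the unclear sample (adjusted p = 0.0465, no filter). pals-34 was higher in all 5 samples of days 11 and 12 than in any of days 6 and 7, 10.1 to 13.9 CPM against 6.13 to 8.52 CPM, with a change of 0.75 ± 0.20 (adjusted p = 0.0047, edgeR) and of 0.62 without that sample (adjusted p = 0.0584, no filter).

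Set against days 2 and 3, days 11 and 12 were higher in 13 of the 20 filtered members and lower in 0, where 31.3% of all tested genes were higher and 28.7% lower (edgeR; 0 lower at an unadjusted p under 0.05, and 0 by DESeq2), and in 28 of the 38 members with no filter (27.2% of all genes, with 0 members and 21.6% of all genes lower). This comparison shares its samples with those described before. The unfiltered count was 25 without the unclear sample, pals-10, pals-17 and pals-22 having lost the call. All samples of days 11 and 12 lay above all of days 2 and 3 in 28 members, beside 24.8% of all genes, and above all of days 6 and 7 in 5, beside 11.1%. By counts, pals-5 (1186 counts on days 11 and 12, 0 on days 2 and 3) was at least 417-fold higher, pals-9 (551 against 0) at least 194-fold, pals-11 (454 against 0) at least 159-fold and pals-12 (189 against 0) at least 66.4-fold. Among members counted in both, pals-14 was 79.2-fold higher in pooled counts (95% exact interval 53.5 to 123, counting error only) and pals-3 81.5-fold (41.1 to 190). Without the unclear sample and with no filter, the log2 change of pals-14 was 5.35, against 6.21 with it, and that of pals-32 was 4.63, against 5.22 with it, and both still passed. Among filtered members the changes of pals-39, pals-32, pals-37, pals-26 and pals-4 were 5.69 ± 0.56, 5.28 ± 0.54, 5.23 ± 0.60, 4.41 ± 0.48 and 4.04 ± 0.28 log2 units. The scarcest members stayed near the limit of detection even then, pals-13 with 0 to 6 counts and pals-15 with 0 to 5 counts per sample. From day 2 on, the day with the highest mean was day 11 or 12 for 23 of the members, and it was day 7 or earlier for 12. The day 12 means include the sample of unclear number, and these counts were not recomputed without it. For example, pals-6 had 2.03 CPM in day 12 replicate 1, against means of 4.46 on day 7 and 4.27 on day 11. The matching shares of all genes were not computed.

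Scaling matters for small changes in these comparisons. With library size alone in place of TMM factors, the median gene changed by 0.48 log2 units between days 6 and 7 and days 2 and 3 and by 0.45 between days 11 and 12 and days 2 and 3. Shifts of that size are comparable to those of pals-17, pals-22 and pals-25, whereas the median of the 38 members lay far above it.

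The opposed pair pals-22 and pals-25 changed by about 1 log2 unit or less between the ages compared after day 1. pals-22, the brake, ranged over 4.02 to 6.13 CPM on days 6 and 7 (median 4.65), against 1.3 to 3.08 CPM on days 2 and 3 (median 2.66), a log2 change of 1.03 ± 0.16 (adjusted p = 4.11e-06, edgeR). pals-25, the activator, ranged over 5.92 to 7.88 CPM (median 6.37), against 3.30 to 4.49 CPM (median 4.02), a change of 0.76 ± 0.17 (adjusted p = 0.000363, edgeR). Neither gene overlapped between these ages. On days 11 and 12 pals-22 had 3.50, 3.72, 4.37, 3.75 and 4.13 CPM, a change of 0.71 ± 0.17 against days 2 and 3 (adjusted p = 0.000604, edgeR) that did not hold without the unclear sample and no filter (0.59, adjusted p = 0.0126). pals-25 had 6.30, 6.05, 5.24, 5.64 and 5.26 CPM on those days, a change of 0.52 ± 0.18 that missed the threshold (adjusted p = 0.0109, edgeR). Over days 2 to 12 both had shallow positive slopes, 0.07 ± 0.02 and 0.05 ± 0.02 log2 units per day (adjusted p = 0.00237 and 0.0038, edgeR), together with a curved term.

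Their balance was farthest from its other values on day 1. The ratio of pals-25 to pals-22 counts was 1.36 to 1.45 in day 2 samples and 0.545 to 0.615 in day 1 samples, with no overlap, and the exact two-sided permutation p of 0.1 is the smallest that 3 samples against 3 allow. At later ages the ratio was 1.11 to 1.73 on days 6 and 7 and 1.36 to 2.54 on days 2 and 3 (exact permutation p = 0.169), and 1.2 to 1.8 on days 11 and 12 (exact permutation p = 0.377 against days 2 and 3 and 0.498 against days 6 and 7). After adjustment over the 4 comparisons no p was below 0.338.

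Of the regulators in the chromosome III block around pals-17, pals-17 itself passed the test between days 6 and 7 and days 2 and 3, and pals-16 and pals-20 did not. pals-17 ranged over 2.50 to 4.08 CPM on days 6 and 7 (median 3.11), against 1.5 to 2.31 CPM on days 2 and 3 (median 1.84), a log2 change of 0.76 ± 0.17 (adjusted p = 0.000436, edgeR), and had 3.04, 3.15, 4.10, 2.48 and 3.08 CPM on days 11 and 12. pals-16 ranged over 0.372 to 1.78 CPM on days 2 and 3 (median 1.15) and 1.04 to 1.5 CPM on days 6 and 7 (median 1.23), and had 0.782, 0.572, 1.37, 0.496 and 0.769 CPM on days 11 and 12. pals-20 ranged over 0.488 to 2.24 CPM on days 2 and 3 (median 1.06) and 0.648 to 1.89 CPM on days 6 and 7 (median 1.29), and had 1.15, 1.05, 1.78, 0.361 and 1.42 CPM on days 11 and 12. For pals-16 and pals-20 the ages overlapped throughout, and no comparison among these ages passed the test. No later sample of pals-16 to pals-20 reached the lowest day 1 level of its gene.

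**Figure D4:**
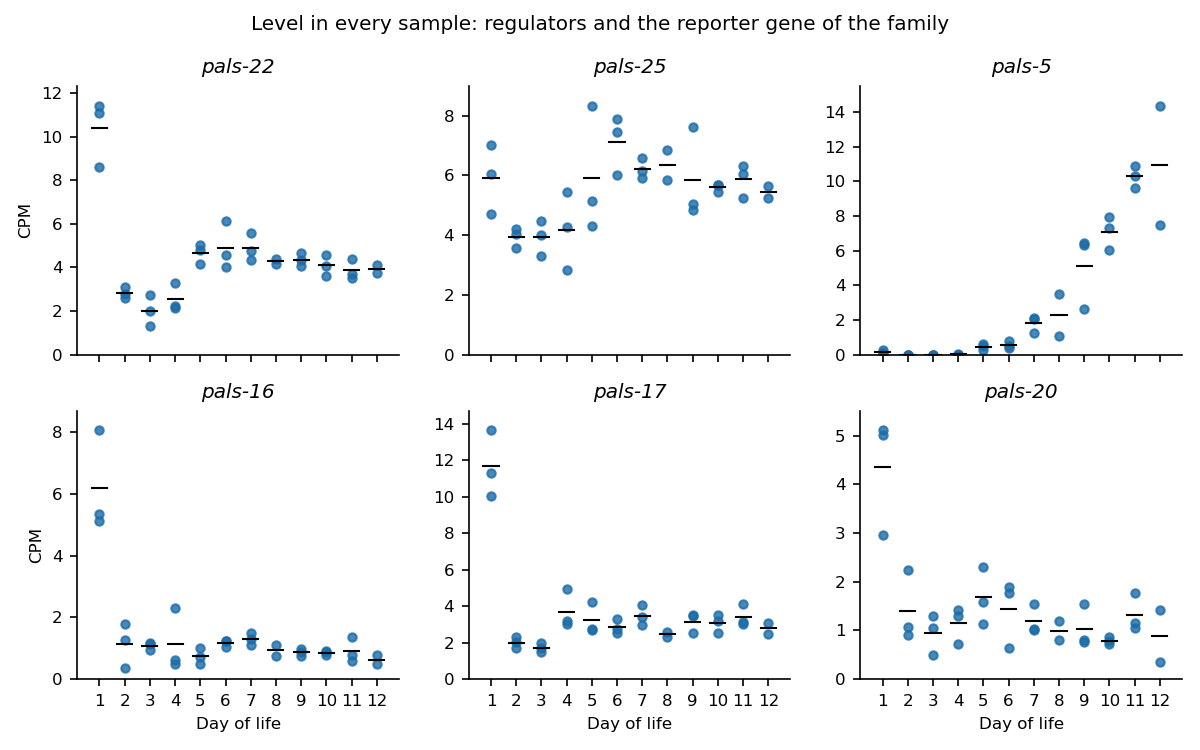
CPM of pals-22, pals-25, pals-5, pals-16, pals-17 and pals-20 in every sample against day of life; points are samples and black bars are day means, each panel on its own linear scale. pals-16, pals-17, pals-20 and pals-22 are highest on day 1, whereas pals-5 averages 10.5 CPM over days 11 and 12 and is at 0 on days 2 and 3.

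On some of the later days most members were highest or lowest in the same sample. On day 12 the sample of unclear number was the higher of the pair for 35 of the 38 members, with a median log2 ratio of 0.68 to replicate 1, beside -0.04 over all detected genes. Their family sums were 193 and 98.7 CPM. On day 9 replicate 2 was the lowest for 33 members (79.3 CPM in sum, where the other samples held 129 and 132 CPM), and on day 11 replicate 3 was the highest for 28 members (172 CPM, where the others held 114 and 135 CPM). On days 1 to 3 the highest value of the members was spread over the samples, with no sample holding it for more than 13 of them. What set the samples of days 9, 11 and 12 apart was not tested, nor was the matching share of all genes computed for days 9 and 11.

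Genes of the response outside the pals family were counted from lists of known members, and each count of rising and falling genes stands beside 36.9% rising and 33.9% falling among all tested genes, or 35.2% and 26.1% with no filter. Of the 7 genes of the CUL-6 ubiquitin ligase, 6 rose across days 2 to 12 and 1 fell when no gene was filtered out. The cullin itself, cul-6, rose by 0.36 ± 0.02 log2 units per day (adjusted p = 4.06e-14, edgeR). It averaged 10.8 ± 1.07 CPM on day 1, 1.65 ± 0.226 CPM on day 2 and 11.9 ± 2.18 CPM on day 11 (SD, n = 3 each). The Skp1-related adaptor skr-5 rose by 0.34 ± 0.03, whereas the adaptor skr-3 and the RING subunit rcs-1 rose by 0.07 ± 0.01 and 0.09 ± 0.02. Unlike cul-6, skr-3 and rcs-1 stayed well below their day 1 level. skr-3 averaged 154 ± 15.4 CPM on day 1, 22.1 ± 0.662 on day 2 and 36.3 ± 7.91 on day 11. The values of rcs-1 were 99.7 ± 26.8, 8.95 ± 0.99 and 14.7 ± 3.14 CPM (SD, n = 3 each). The F-box genes fbxa-75 and fbxa-158 rose by 0.86 ± 0.13 and 0.66 ± 0.05 (no filter), the first of them on few counts, 0 and 23 in the 2 samples of day 12. The adaptor skr-4 fell by 0.07 log2 units per day (SE 0.02, adjusted p = 0.00166, edgeR).

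All 4 of the other induced genes on the list rose (no filter). eol-1, a decapping-exonuclease relative induced by virus, rose by 0.63 ± 0.02 log2 units per day and averaged 0.334 ± 0.112 CPM on day 2, 18 ± 0.339 CPM on day 6 and 43.5 ± 4.22 CPM on day 11 (SD, n = 3 each). F26F2.1, F26F2.3 and F26F2.4 rose by 0.59 ± 0.07, 0.47 ± 0.08 and 0.40 ± 0.09, but their highest day means from day 2 on were those of day 7. They averaged 2.80, 1.73 and 1.10 CPM on day 7 (n = 3) and 0.918, 0.426 and 0.282 CPM on day 12 (n = 2). Of 5 regulators outside the family 4 rose, by smaller amounts: zip-1, a bZIP transcription factor of the response, by 0.14 ± 0.01, drh-1, a sensor of viral RNA, by 0.13 ± 0.02, and the repressors lin-15B and sta-1 by 0.11 ± 0.02 and 0.10 ± 0.02. The purine nucleoside phosphorylase pnp-1, a further brake, fell by 0.09 (SE 0.02, adjusted p = 1.37e-05, edgeR), but not steadily. It averaged 38.8 ± 9.53 CPM on day 2, 87 ± 10.6 on day 4, 57.1 ± 4.68 on day 7 and 30.5 ± 3.92 on day 11 (SD, n = 3 each). Between days 11 and 12 and days 2 and 3 its log2 change of -0.51 ± 0.18 missed the threshold (adjusted p = 0.0124, edgeR).

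**Figure D5:**
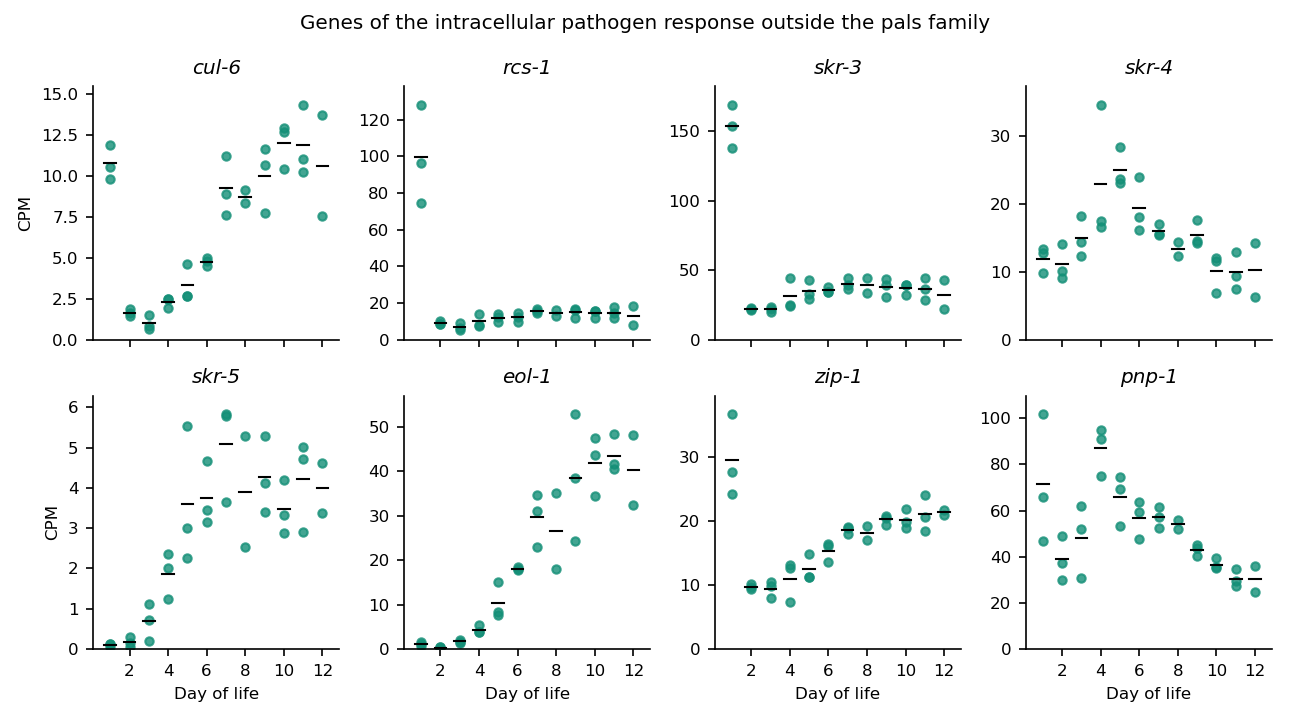
CPM of 8 genes of the intracellular pathogen response outside the pals family in every sample against day of life; points are samples and black bars are day means, each panel on its own linear scale. eol-1 averages 43.5 CPM on day 11 and 0.334 CPM on day 2, and cul-6 is near 11 CPM at both ends of the series.

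Lists with other relations to the response went different ways. All 14 subunits of the 20S proteasome, whose inhibition induces pals genes in C. elegans, fell with age (median -0.13 log2 units per day), among them pas-2 by 0.18 and pbs-7 by 0.16. All 7 inducible heat shock genes rose, led by hsp-70 (0.78) and hsp-16.41 (0.65), although copies of the hsp-16 genes share sequence. The 4 antiviral RNA interference genes rose, with dcr-1 at 0.19 and drh-1, which is also counted among the regulators, at 0.13. Of 26 chitinase-like chil genes, induced by oomycetes rather than by intracellular pathogens, 10 rose and 5 fell with no filter (2 and 5 of the 10 that passed it), with chil-18 at 0.67 and chil-23 at -0.22, and the unfiltered share of this list that rose was near that of all genes.

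Marker sums differed between these ages as well. All 5 intestine markers, from the tissue in which the response is best known, fell with age, and their summed level was 440 to 918 CPM on days 2 and 3, 136 to 204 CPM on days 6 and 7 and 75.4 to 142 CPM on days 11 and 12. Among 6 epidermis markers the sum was 15.6 to 46.4 CPM on days 11 and 12 and 175 to 2225 CPM on days 2 and 3, but of the 4 genes tested 1 fell with age (col-19, an adult cuticle collagen, by 0.64 log2 units per day) and 2 rose (dpy-7, a cuticle collagen, by 0.20 and che-14 by 0.12). The 9 germline markers summed to 5856 to 7241 CPM on days 11 and 12 and 6654 to 9398 CPM on days 2 and 3, which overlapped. Their part in the higher pals levels was not tested.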

How the data were processed

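Whole-animal RNA of 34 populations was enriched for polyadenylated RNA, depleted of ribosomal RNA and primed with random hexamers. The authors aligned reads with STAR 2.7.3a and counted them per gene with featureCounts (version not given in the sources used here) on WBcel235, and the deposited table holds raw counts per gene. Whether the counting used strand, and how it treated reads that fit several genes, is not given in the sources used here. One entry that is no worm gene (at most 0.00124% of counts) was left out of all fits.

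From the counts, edgeR 4.0.16 (R 4.3.3) with TMM factors was fitted to genes with at least 5 counts in 75% of samples, and again with no filter so that every member had a value. Age was modelled over days 2 to 12 (31 samples) as an orthogonal polynomial of degree 3, with the linear term given as log2 units per day, and pairs of ages were compared in a fit with day as a factor over all 34 samples. Quasi-likelihood tests were adjusted by Benjamini and Hochberg over all genes, with a threshold of 0.01, and the SE is the absolute log2 change divided by the square root of F. A group at 0 was given a floor of 3 counts over its samples. Intervals of count ratios are exact at 95% and, like the floors, cover counting error only. The ratio of pals-25 to pals-22 was compared by exact permutation (SciPy 1.17.1). Exonic lengths, positions and overlaps came from Ensembl release 115. On simulated counts 192 of 200 planted slopes of 0.2 per day were recovered with 2 false calls among 13820 genes, and 187 of 200 planted changes of 2 log2 units between days 11 and 12 and days 2 and 3 with 1 false call among 13766. The simulation held only genes that passed the filter, so these rates do not cover the fits with no filter.

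The members, lists and tests were chosen with earlier results of these data known. All 38 members were counted. Full values were given for pals-22, pals-25, pals-5, pals-16, pals-17 and pals-20 and for up to 6 members with the largest change in each direction among those past the threshold, and for a fixed set of response genes. The time course was repeated 3 times by the study, but the labels do not say what else the replicates shared, so p-values measure only the spread between these samples, part of which may be technical. The study's own model included sequencing batch, but the batches of these samples are not named, so no batch term was fitted here. Any batch difference that ran along with day could not be told apart from age. Alternatives were DESeq2 1.42.0, other scalings and filters, the compared days alone, day 1 in the age model, a replicate term and left-out samples.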

Additional observations from a re-analysis of the deposited data

Results flagged for a closer look

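Counts were also assigned to an entry named transgene, which belongs to no comparison made here: it held 2 to 262 counts per sample, above the limit that a count of 0 allows in the sample with the most.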

How the results depend on the processing

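Of 569 single-gene values recomputed under alternatives, 527 kept their direction and side of the threshold, 40 kept their direction but not the threshold, and 2 reversed, the slopes of pals-22 and pals-18, each -0.014 log2 units per day with day 1 included. That setting also gave 2 falling members. Dropping the filter, which lets every member be tested, gave 30 members changed and 29 rising with age, 28 higher on days 6 and 7 than on days 2 and 3, 8 higher on days 11 and 12 than on days 6 and 7, and 28 higher on days 11 and 12 than on days 2 and 3. Requiring 10 counts in every sample left 7 members for age, of which 4 changed and 4 rose, and 6 for the contrasts, with 0 higher and 3 lower on day 2, then 4, 0 and 3 higher in the later comparisons in the same order. Fitting the compared days only gave 1 higher and 5 lower on day 2 (of 11), 10 higher on days 11 and 12 than on days 6 and 7 (of 33) and 8 higher than on days 2 and 3 (of 13). Among the alternatives, shares of all genes are given only for the fit with no filter and all samples. Counts under the other settings have no background beside them and cannot be read against the main shares. For days 11 and 12 against days 6 and 7, library size alone gave 1. Leaving out the day 12 sample of unclear number, chosen after seeing the data, gave 0 there, and with no filter it gave 29 changed and 29 rising with age and 25 higher on days 11 and 12 than on days 2 and 3. Leaving out each replicate in turn gave 12 to 15 changed and 12 to 15 rising with age, 1 to 3 higher and 8 to 10 lower on day 2, 11 to 15 higher on days 6 and 7, 0 to 1 higher on days 11 and 12 than on days 6 and 7 and 11 to 13 than on days 2 and 3. The lowest of these came without replicate 2 for day 2 higher (1) and for days 11 and 12 against days 6 and 7 (0; 1 without replicate 1 or 3). Replicate numbers did not pair the samples: 40 of 166 same-numbered pairs and 75 of 331 others correlated above 0.1 in their deviations. A replicate block, which leaves out the day 12 sample of unclear number, gave 0 members higher on days 11 and 12 than on days 6 and 7 and kept the other counts (14 rising, 2 higher and 12 lower on day 2, 14 and 13 higher). The cause of these differences was not tested. At this depth members with under 3 counts in a group have no measurable fold change.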
